A study of Mus musculus with 4 samples.

Results

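Binding of the LIM-homeodomain transcription factor Isl1 was examined around 10 genes that receive or restrain bone morphogenetic protein (Bmp) signals: the inhibitors Smad6, Smad7, Bambi, Nog, Grem1 and Chrd, and the receptors Acvr1, Bmpr1a, Bmpr1b and Bmpr2. They were 10 of 21887 protein-coding genes in the gene table. A peak belonged to a gene when its midpoint lay in the gene or within 500 kb of either end. Chromatin came from the embryonic genital tubercle, the outgrowth that forms the penis or clitoris, of wildtype CD1 mice at E14.5 (days of gestation). It was precipitated with a rabbit monoclonal antibody against ISL1 in 2 ChIP-seq samples, replicates 1 and 2. The 2 input DNA samples of the same tissue came without peak calls and were not used here. The labels do not say whether the replicates came from separate litters or pools, so differences between them may be technical. The files held no expression values, so the labelled tissue could not be checked against marker genes. Positions are in mm10.

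Bmp ligands bind a complex of type I and type II serine/threonine kinase receptors on the cell surface, and the activated type I receptor phosphorylates receptor-regulated Smad proteins, which enter the nucleus with Smad4. The pathway is restrained at several levels: secreted proteins trap the ligands, a kinase-dead pseudoreceptor blocks the complex, and inhibitory Smads act inside the cell. In the genital tubercle, Bmp signalling is known to take part in outgrowth, cell death and urethral development.

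Isl1 peaks found in both replicates lay near most of these genes, and inside 3 of the 10 (8.32% of all protein-coding genes held one). The replicates shared 50 regions in the 10 windows (exact Poisson 95% interval 37.1 to 65.9, counting error only), with overlapping peaks (at least 1 bp in common) joined into one shared region. Of the 10 genes, 9 had at least 1 shared region, against 78.0% of all protein-coding genes. With so common a background, that count alone says little about these genes. The median was 4.5 regions per gene (range 0 to 11) against 2 (quartiles 1 and 4) over all protein-coding genes. Of the 10 genes, 8 lay above that median of 2, as did 43.2% of all genes, and 7 had 4 or more regions, as did 29.0% of all. The windows held 4.63 shared regions per Mb over 10.8 Mb, against 2.54 per Mb over the annotated span of all chromosomes. That span was not limited to the surroundings of genes, as the windows were, so the densities are not like for like. These figures are descriptions and were not tested, since the genes were chosen with results of these data known.

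**Figure D1:**
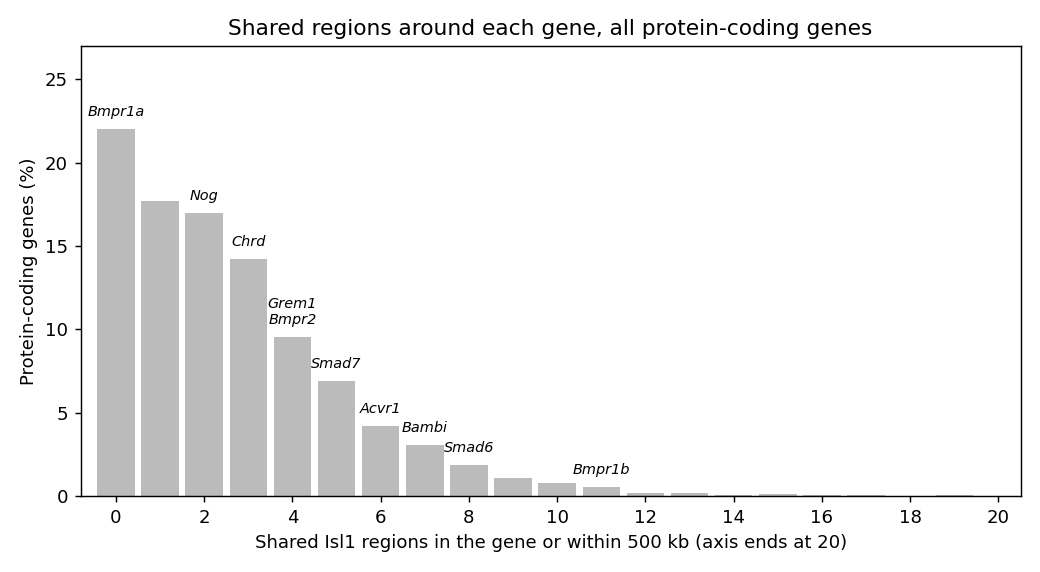
Share of the 21887 protein-coding genes (vertical axis, percent) with each number of shared Isl1 regions in the gene or within 500 kb (horizontal axis, cut at 20). Names stand above the bar of each gene's own count: Bmpr1a has 0, Nog 2 and Chrd 3, while Smad6 with 8 and Bmpr1b with 11 lie in the thin upper tail.

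Shared regions lay inside 3 of the 10 genes, Smad6, Bambi and Acvr1, against 8.32% of all protein-coding genes. Smad6, Bambi and Acvr1 span 69, 9.39 and 120 kb, and the share over all genes was not matched for gene length. These 3 were also the only ones of the 10 that were the nearest protein-coding gene to any region of their window or contained one (15.6% of all genes). Together they accounted for 13 of the 50 regions. The other 37 regions were inside or nearest to a neighbouring gene, and 30 of those 37 lay inside it. Within 100 kb, 5 of the 10 genes had a region, against 38.1% of all. Bmpr1b and Grem1 joined the list at that distance, whereas the closest shared region was more than 100 kb away at Smad7, Nog, Chrd, Bmpr1a and Bmpr2.

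**Figure D2:**
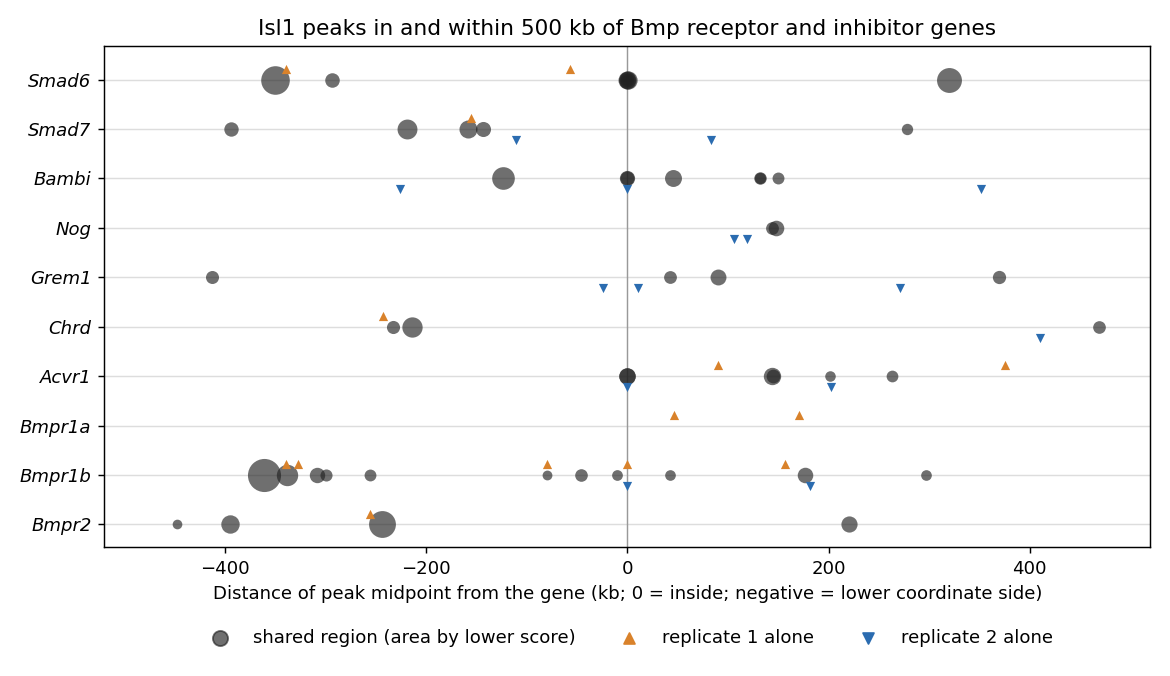
Position of each peak midpoint relative to its gene (horizontal axis, kb, 0 for a midpoint inside the gene, negative on the side of lower coordinates), with 1 row per gene. Grey circles are the 50 shared regions, with area growing with the lower of the 2 replicate scores, and triangles are peaks of 1 list alone (14 in replicate 1, 15 in replicate 2). Circles stand at 0 for Smad6, Bambi and Acvr1, and the row of Bmpr1a has none.

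Smad6 encodes an inhibitory Smad that acts mainly against Bmp signals by binding activated type I receptors. It had 8 shared regions in its window, more than 94.8% of genes had, and 5 of the 8 lay inside the gene or closer to it than to any other protein-coding gene (5 or more were found for 1.06% of genes). The gene spans 69.0 kb on chromosome 9 (63953076 to 64022085) on the minus strand. One region covered its promoter. It ran from 64021934 to 64022260, contained the start site listed by RefSeq at 64022059, and overlapped 251 bp of the 300 bp promoter window (250 bases before to 50 after the start). The score that the authors deposited for the peak was 161 in replicate 1 (75.6th percentile of that list) and 213 in replicate 2 (82.5th percentile). Of the 7 genes of the set with a promoter window in the RefSeq table, Smad6 was the one with a shared region over it, against 4.29% of the protein-coding genes in the table.

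A further region lay just upstream of the Smad6 start, at 64022803 to 64022989, 0.807 kb beyond the gene end, with scores of 263 and 201 in replicates 1 and 2. It was separated from the promoter region by 542 bp. The remaining 3 were inside the gene (1.17% of all genes held 3 or more), between 41.2 and 48.0 kb downstream of the start site. The strongest of these, 63980598 to 63980935, scored 238 and 194 and stood 35 bp from a weaker one (63980250 to 63980562, scores 50 and 98). The one farthest into the gene, 63973937 to 63974238, scored 99 and 146. When the overlap had to cover at least 50% of both peaks, 7 of the 8 regions of the window were left. The one lost was the weaker region inside the gene at 63980250 to 63980562, and with it the pair 35 bp apart. Replicate 1 alone placed a further weak peak 56.5 kb from Smad6, with a score of 61.

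The promoter sequence before Smad6 is shown because this promoter is the place where an Isl1 peak met the start of a gene of the set. Beside it stands the promoter of Bmpr2, a receptor gene without a peak there. Both are from RefSeq (GRCm38.p6, the coordinates of mm10), are given 5′ to 3′ on the strand of the gene, and end before the first annotated base of the gene. Smad6 is chr9:64022086-64022309 on the minus strand and Bmpr2 is chr1:59764029-59764278 on the plus strand. The Smad6 region ran from 64021934 to 64022260, so it covered only a part of the printed bases. Its other part, with the start site at 64022059, is not printed. Capitals mark matches to the searched words GGGCGG and GGCGCC on either strand.
Smad6: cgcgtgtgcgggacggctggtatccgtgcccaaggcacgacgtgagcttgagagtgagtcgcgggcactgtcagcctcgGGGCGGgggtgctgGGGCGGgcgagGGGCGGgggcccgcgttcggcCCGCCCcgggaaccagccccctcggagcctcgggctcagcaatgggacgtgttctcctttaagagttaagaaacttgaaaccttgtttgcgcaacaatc
Bmpr2: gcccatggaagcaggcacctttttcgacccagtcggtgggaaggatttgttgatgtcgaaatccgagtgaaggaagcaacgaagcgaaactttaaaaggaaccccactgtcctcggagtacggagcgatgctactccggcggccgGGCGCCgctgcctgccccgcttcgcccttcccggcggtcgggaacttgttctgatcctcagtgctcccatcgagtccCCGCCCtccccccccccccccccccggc

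The Smad6 stretch held GGGCGG, the word bound by Sp and Klf zinc finger factors, 4 times between 171 and 125 bases before the start site. None of the homeodomain words searched was found in the 300 bp window: the homeodomain core TAAT, and the longer words that contain it, CTAATG for Isl1 relatives, TAATTA for many homeodomains and TAATCC for Pitx proteins. That says only that these letters are not in this window. GGGCGG was present in 35.7% of all 32851 promoter windows of the same length and in 58.8% of the 923 that a shared region overlapped. Windows with 4 or more copies made up 5.49% of all and 9.21% of the overlapped ones. TAAT was present in 58.0% and 46.5%, and CTAATG in 7.36% and 4.66%. The overlapped windows were richer in G and C, with a median of 61.0% against 52.7% over all windows and 66.3% for Smad6, and the part of base composition in these shares was not tested. The other words searched on both strands were CAGAC for Smads, CATCTG for bHLH factors, CAATAAA for posterior Hox proteins, TGTTTAC for forkhead factors, AGATAA for Gata factors, CTTTGAT for Tcf and Lef, TGANTCA for AP1 factors and CCAAT for the NFY complex. Of these the 300 bp window of Smad6 held CCAAT, 1 match, in the transcribed end that is not printed (37.4% of all windows hold it). GGGCGG alone does not set the Smad6 window apart from the others of the set, since Acvr1, whose promoter window no shared region overlapped, held 6 copies. Chrd and Bmpr1a held 4 each and Grem1 held 3, also without a shared region there. Bmpr2 held 1, and Bmpr1b had none. GGCGCC, marked in Bmpr2 and absent from the Smad6 window, was present in 11.9% of all windows and 21.3% of the overlapped ones.

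The other 3 regions of the Smad6 window lay at other genes, and 2 of them scored higher in both replicates than any region at Smad6. A region with scores of 530 and 592 covered the divergent promoters of Aagab and Iqch, 350.5 kb downstream of Smad6, and one with scores of 396 and 514 lay 0.718 kb from Dis3l, an RNA exonuclease gene, 320.0 kb upstream. One region, with scores of 130 and 117, lay inside Smad3, which encodes a receptor-regulated Smad of the Tgf-beta branch.

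Bambi encodes a transmembrane protein that resembles a type I receptor but lacks the kinase domain. It had 7 shared regions, and 6 of them lay in the gene or had it as the nearest protein-coding gene (6 or more were found for 0.662% of genes). Bambi spans 9.39 kb on chromosome 18 (3507011 to 3516404). Its strand is not given in the tables used here. A pair of regions lay inside it, 819 bp apart, at 3510588 to 3510827 (scores 136 and 131 in replicates 1 and 2) and at 3511647 to 3511887 (scores 106 and 180). Both were more than 3 kb from either gene end, with midpoints 3.67 and 4.65 kb from the nearer one. Regions numbered 2 or more inside 2.57% of all protein-coding genes. Replicate 2 alone had another peak in the gene, with a score of 51.

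The other 4 regions for which Bambi was the nearest gene stood in the gene-poor stretch on its higher coordinate side. The closest, 45.1 kb away (3561338 to 3561638), scored 184 and 169. A pair 94 bp apart at 131.6 and 131.9 kb scored 93 and 60, and 85 and 79, and the farthest, at 149.4 kb, scored 93 and 70. Scores on this side thus were lower at the 3 distant regions than at the nearer one in both replicates. The strongest region of the window, with scores of 496 and 323, was 123.9 kb away on the other side, with its midpoint 105 bp inside Cul2, a ubiquitin ligase scaffold gene. With peaks limited to those at or above the median score of their list, 4 of the 7 regions were left.

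Pairs of regions at most 1 kb apart were found 4 times in the 10 windows, at the Smad6 promoter, inside Smad6, inside Bambi and beside Bambi. They comprised 8 of the 50 regions (16%, Wilson 95% interval 8.34 to 28.5%), against 8.18% of all 6834 shared regions. The overall share lay just under the interval, which treats the regions of a pair as independent although each makes the other count. The pair inside Smad6 was lost when the overlap had to cover at least 50% of both peaks. No test was made.

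Acvr1, a type I receptor gene, was the one receptor gene with shared regions inside it. It had 6 regions in its window, a number that 12.6% of all genes reached or exceeded. Inside the gene lay 2 of them (2.57% of genes held 2 or more, and 6.04% held or were nearest to 2 or more). Acvr1 spans 120 kb on chromosome 2 (58446438 to 58566828) on the minus strand. The scores of the 2 inner regions differed little between replicates. The one at 58446701 to 58446977 (scores 186 and 156) had its midpoint 403 bp from the 3′ end of the gene, and the one at 58532442 to 58532656 (scores 173 and 162) lay 34.3 kb downstream of the start site. Replicate 2 alone had another peak inside the gene, with a score of 82. The other 4 regions were all upstream, 3 of them inside the neighbouring gene Upp2, which encodes a uridine phosphorylase. The strongest there, 58710127 to 58710407, 143.4 kb from Acvr1, scored 179 and 293, and its neighbour 1533 bp away scored 128 and 101. A region 201.8 kb away scored 49 and 106, and one inside Ccdc148, 262.7 kb away, scored 119 and 67.

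**Figure D3:**
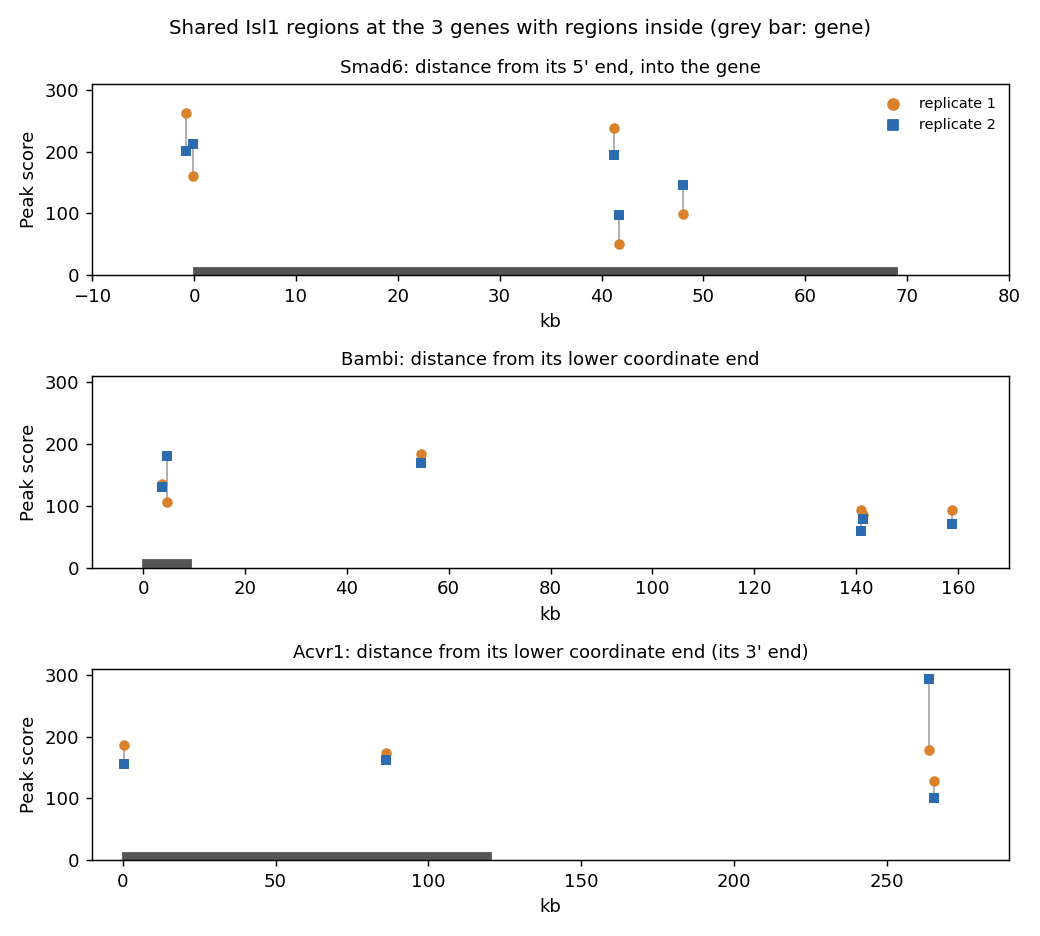
Scores of the shared regions (vertical axis, authors' peak score) in replicate 1 (circles) and replicate 2 (squares) against position (horizontal axis, kb) at Smad6, Bambi and Acvr1, with a grey bar for each gene and a line joining the scores of 1 region. Smad6 shows regions at its 5′ end and deep in the gene. Bambi shows a pair inside, a region beyond it with scores of 184 and 169, and regions with lower scores farther out. Acvr1 shows regions near its 3′ end and inside, with none at its start. The panels do not cover the whole windows. Among the regions left out are those at Aagab, Dis3l and Cul2, which scored higher than any region drawn.

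Bmpr1b, the type I receptor gene best known from cartilage condensations of the limb, had the most regions of the set, 11 (1.45% of genes had as many), yet none was shared inside its 332 kb (chromosome 3, 141837135 to 142169585, minus strand). Each replicate had 1 peak in the gene, with scores of 45 and 50, but these stood 69.7 kb apart. Of the 11 shared regions, 8 lay inside Unc5c, the netrin receptor gene that follows Bmpr1b downstream. The closest, 10.5 kb from Bmpr1b (141826553 to 141826720), was weak, with scores of 52 and 83. The strongest of all 50 regions, 141475684 to 141476419, scored 720 and 787 (97.6th and 98.9th percentile of the lists) and lay 361.2 kb from Bmpr1b and 10387 bp inside an end of Unc5c. The next in Unc5c, 141498475 to 141499069, scored 284 and 410. Most of the count of 11 thus lay in a neighbour, and 4 of the 11 were left when peaks under the median score of their list were dropped. The window also grows with the gene. Per Mb of window, Bmpr1b had 8.26 regions and Smad6, the next by count, had 7.48. The 1.45% was not matched for gene length. On the upstream side, 3 regions near or in Pdlim5 and near Gbp5 had scores from 124 to 156 in replicate 1 and from 51 to 171 in replicate 2.

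Bmpr1a, the type I receptor gene whose loss stops mouse embryos at gastrulation, was the one gene without a shared region in its window. It spans 92.3 kb on chromosome 14 (34411061 to 34503336). Replicate 1 had 2 peaks near it, 46.1 kb away inside Ldb3 with a score of 93 and 170.3 kb away inside Wapl with a score of 104, and replicate 2 had none within 500 kb. Over all genes, 82.7% had a replicate 1 peak and 84.3% a replicate 2 peak at that distance. The nearest shared region was 561.9 kb away, just beyond the window, with scores of 93 and 247. A site under the authors' threshold would not appear, so the gene is not shown to be unbound, and genes without a shared region within 500 kb make up the rest of the background given above.

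Bmpr2 encodes the type II receptor that is selective for Bmp ligands. It had 4 shared regions, none closer than 220.1 kb and none with Bmpr2 as the nearest gene (chromosome 1, 59764279 to 59878081, plus strand). The strongest, 59520237 to 59520717, scored 464 and 660 and lay 243.8 kb upstream inside Gm973. On the other side, the closest region (60098129 to 60098291, scores 193 and 152) held the divergent start sites of Wdr12, a ribosome assembly gene, and Carf. Those near Cdk15, 395.2 and 447.8 kb upstream, scored 260 and 204, and 37 and 67.

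Smad7, the inhibitory Smad that acts on both the Bmp and the Tgf-beta branch, had 5 shared regions, none within 100 kb (chromosome 18, 75367365 to 75395935). Dym, which encodes a Golgi-associated protein, held 3 of them, between 143.5 and 219.1 kb from Smad7. In that order of distance they scored 128 and 199, 195 and 227, and 243 and 283 in replicates 1 and 2. Over these 3 the scores rose with distance from Smad7 in both lists. Replicate 2 alone had nearer peaks, 83.0 kb away inside Ctif (score 100) and 111.0 kb away inside Dym (score 27). The outer regions, 278.3 kb away inside Ctif and 393.6 kb away near Lipg, scored 61 and 100, and 213 and 114.

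Among the secreted antagonists, none of Nog, Grem1 and Chrd had a shared region inside it, and all 9 of their regions were inside or nearest to other genes. Since 8.32% of all genes hold a region and 15.6% hold or are nearest to one, 0 of 3 is no trait of these genes. These are short genes, of 1.92, 9.97 and 11 kb.

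Nog encodes noggin, which binds Bmp ligands and masks their receptor sites. It had 2 shared regions (chromosome 11, gene at 89300638 to 89302559), 144.2 and 147.9 kb away and both inside Ankfn1. The first (89446728 to 89446919) scored 85 and 166 and the second (89450183 to 89450586) 170 and 139, so the order of the pair differed between replicates. Replicate 2 alone placed 2 more peaks inside Ankfn1, 106.3 and 118.8 kb from Nog, with scores of 83 and 66, which made 4 peaks there in replicate 2 against 2 in replicate 1.

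Grem1 encodes gremlin, which in the limb bud keeps Bmp activity low while the bud grows out. Limb elements that act on Grem1 are known to lie in its neighbour Fmn1. It had 4 shared regions (chromosome 2, gene at 113748675 to 113758648, minus strand). The closest, 113801050 to 113801190, was 42.5 kb upstream inside Scg5, with scores of 85 and 108, and the next, 90.4 kb upstream, scored 188 and 146 and overlapped 129 bp of a promoter window of Arhgap11a. One region with scores of 89 and 127 was inside Fmn1, 412.7 kb downstream and 8354 bp from an end of that gene, and one with 93 and 99 was inside Aqr, 369.7 kb upstream. Replicate 2 had 7 peaks in the window, 3 of them unshared, against 4 in replicate 1, all shared. The strongest unshared peak of replicate 2 (113724507 to 113724751) stood 24.0 kb from the 3′ end of Grem1, between Grem1 and Fmn1, 7.86 kb from the latter, and scored 243, the 85.2th percentile of the list. Of the 1517 peaks of replicate 2 with at least that score, 4 had no overlapping peak in replicate 1, and this was one of them. The nearest replicate 1 peak was 76.3 kb away. A further replicate 2 peak 10.5 kb upstream of Grem1 scored 58.

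Chrd encodes chordin, a Bmp-binding antagonist cleaved by tolloid proteases. It had 3 shared regions, all more than 200 kb away (chromosome 16, gene at 20731425 to 20742384, plus strand). Those upstream lay over the start sites of Dvl3, a Wnt pathway dishevelled gene (20516968 to 20517107, scores 386 and 254, 214.4 kb), and of Eif2b5, a translation initiation factor gene (20498796 to 20498929, scores 201 and 90, 232.6 kb). The third was inside Ephb3, an Eph receptor gene, 468.6 kb downstream, with scores of 102 and 83. It was the region nearest to the 500 kb limit from inside. The next ones beyond the limit were at 536.6 kb from Chrd (scores 55 and 40) and at 560.3 kb from Bambi (scores 234 and 280).

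The 50 regions had a higher median score than shared regions in general in both replicates, which was not tested. In replicate 1 their median was 136.5 (quartiles 90 and 199.5, range 37 to 720), against 107 (quartiles 69 and 194) over all 6834 shared regions. In replicate 2 it was 139 (quartiles 100.25 and 200.5, range 51 to 787), against 127 (quartiles 82 and 217). The upper quartile in replicate 2 was thus below that of all shared regions. In replicate 1, 37 of the 50 were in the upper part of the list by rank (above the 50th percentile), against 4078 of all 6834, and in replicate 2, 40 of the 50 were, against 4496 of all. The median percentile was 68.5 in each list, against 59.4 in replicate 1 and 64.8 in replicate 2 over all shared regions. At or above the 90th percentile of both lists were 5 of the 50 regions, against 10.4% of all, and none of the 5 was inside or nearest to a gene of the set: they were those at Aagab, Dis3l, Cul2, Unc5c and Gm973. The 13 regions inside or nearest to Smad6, Bambi and Acvr1 scored at most 263 in replicate 1 and 213 in replicate 2, with medians of 136 and 156. The median width of the 50 regions was 257 bp, against 251 bp over all.

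**Figure D4:**
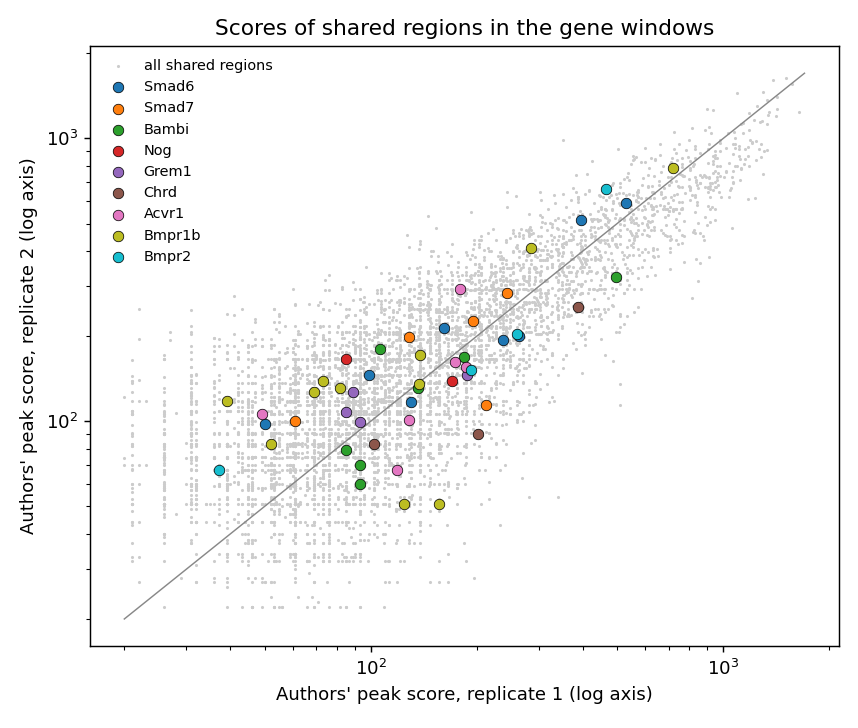
Authors' peak score in replicate 1 (horizontal, log axis) and replicate 2 (vertical, log axis) for the 50 shared regions of the gene windows (coloured by gene) over all 6834 shared regions (grey), with the line of equal scores. The coloured points lie within the grey cloud on both sides of the line, with the Unc5c region of the Bmpr1b window at 720 and 787 as the highest.

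Replicates agreed in these windows about as often as elsewhere. Of the 64 peaks of replicate 1 in the windows, 50 had a partner in replicate 2 (78.1%, Wilson 95% interval 66.6 to 86.5%), as did 78.5% of the whole list. Of the 65 of replicate 2, 50 had a partner in replicate 1 (76.9%, 65.4 to 85.5%), as did 68.3% of that list. The 14 unshared peaks of replicate 1 had a median score of 65 (range 45 to 110) and the 15 of replicate 2 a median of 80 (27 to 243), and 3 of these 29 stood within 1 kb of a peak of the other list. Spearman's rho between the 2 scores of a region was 0.715 over the 50 regions and 0.717 over all. This is a description over sites that share 2 libraries. The higher of the 2 scores exceeded the lower by a median factor of 1.38 and by 3.06 at most. Replicate 2 scored higher in 26 of 50 (52%, Wilson 95% interval 38.5 to 65.2%), against 58.9% of all shared regions. It is not known whether scores can be compared between libraries, so these last figures only describe the numbers given.

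By position, 37 of the 50 regions (74.0%, Wilson 95% interval 60.4 to 84.1%) had their midpoint inside a protein-coding gene, against 42.8% of all shared regions, and Unc5c alone held 8 of the 37. Within 1 kb of a gene end were 10 (20.0%, 11.2 to 33.0%), against 13.6%, and these comprised 3 regions at Smad6 or Acvr1 and 7 at other genes. No region fell in more than 1 of the 10 windows, but regions of 1 window are not independent of each other. The 50 regions came from windows around protein-coding genes, whereas all shared regions were taken wherever they lay. The shares are therefore not like for like, and they were not tested.

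The other Bmp pathway genes were counted in the same way. Of 43 such genes, listed by role, 38 (88.4%) had a shared region in the gene or within 500 kb and 5 (11.6%) had one inside, to be read against the 78.0% and 8.32% of all genes. Their median was 3 regions, below the 4.5 of the receptor and inhibitor set and above the 2 of all genes. Of 10 ligand genes 9 had a region. Bmp5 had 13, of which 2 were inside (the stronger one scored 179 and 284), Bmp4 had 12, and Bmp7 had 7 with 1 inside (scores 124 and 48). Of 6 other receptor and co-receptor genes 5 had one and none had one inside, with 7 at Eng, which encodes endoglin, and 4 at Rgmb, a Bmp co-receptor.

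All 4 signal transducer genes had regions in their windows and none inside, which at 78.0% and 8.32% of all genes says little about so few. Smad9 had 8 and Smad5 had 5, both encoding Smads that Bmp receptors phosphorylate. Of 10 other secreted antagonists and modulators 9 had one, and 2 had one inside: Bmper, a crossveinless-related Bmp-binding protein, with 7 regions and scores of 282 and 194 for that inside, and Fstl1, a follistatin-like protein, with 1 weak region (39 and 51). Cer1 had 10. All 5 other intracellular inhibitors had a region, with the same background of 78.0%. Smurf1, a ubiquitin ligase gene of the pathway, had 4, Ski, a Smad corepressor gene, had 3, and Smurf2 had 1 of its 2 inside the gene (scores 93 and 89). Of 8 response genes 6 had one and none had one inside, with 9 at the homeobox gene Msx1 and 4 at Id2.

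**Figure D5:**
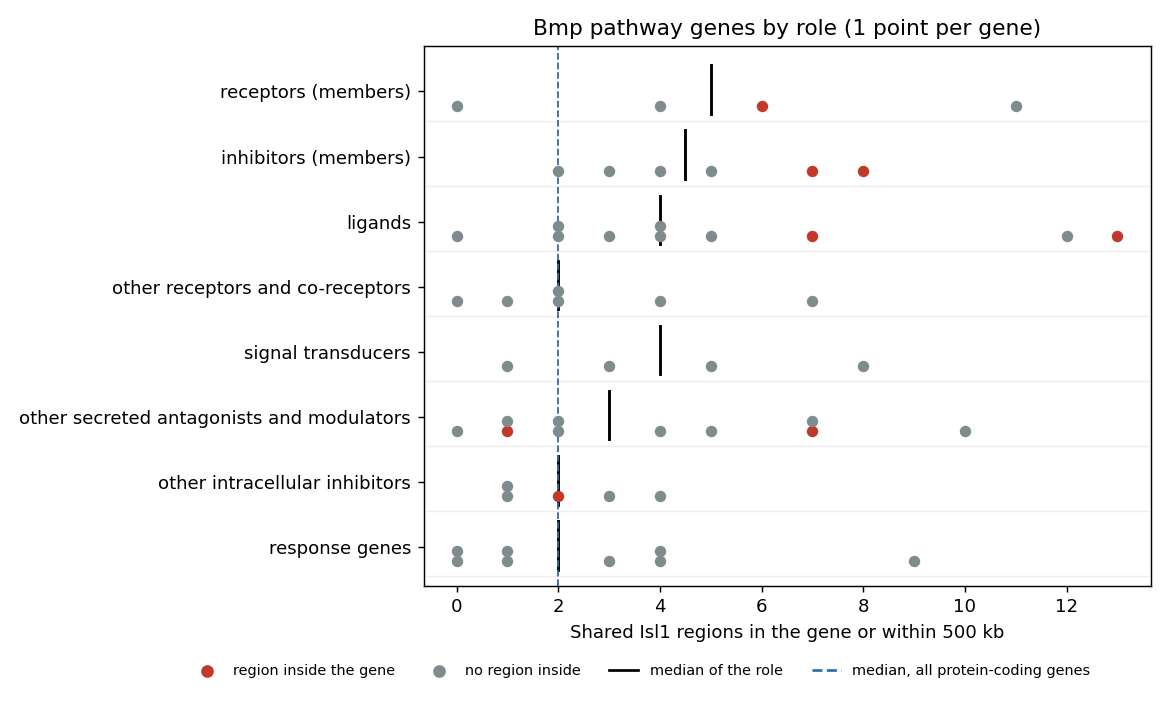
Number of shared Isl1 regions in the gene or within 500 kb (horizontal axis) for each gene of the set and for 43 other Bmp pathway genes, in rows by role, with 1 point per gene, red where a region lies inside the gene. Black bars are the medians of the rows and the dashed line is the median of 2 over all protein-coding genes. The receptors and inhibitors of the set have medians of 5 and 4.5.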

How the data were processed

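For each ChIP sample the authors deposited 1 peak list in mm10, which gives the position of a peak and a score in whole numbers. Trimmomatic 0.35, Bowtie2 2.2.6, MACS2 2.1.0.20150731 and bedtools appear in the submitters' processing notes, without order or settings. The score's formula, the threshold and any use of input were not given in the sources used here. No score was under 20. Read totals are not in the lists, so depth is unknown, and weak sites may be missing from either list. Whether scores can be compared between libraries is not stated.

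Overlapping peaks were joined into shared regions in Python 3.11.15, checked on simulated peaks. The midpoint of a region is that of the longest overlap of its peaks. Genes and promoters came from RefSeq GRCm38.p6 tables, which gave strand for 7 of the 10 genes. Percentiles are ranks within a list. Named were all 10 genes, with their closest, strongest and inner regions, and by role the listed pathway genes with most regions or one inside. The Grem1 peak of replicate 2 with a score of 243 was chosen after its value was seen. Members and lists were chosen with earlier results of these data known. No chance test was run. Intervals cover counting error only.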

Additional observations from a re-analysis of the deposited data

How the results depend on the processing

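Of 120 values under alternatives, 79 stayed within the limits set for them (1.5 times for a count, the interval or quartiles for a share or median score) and 41 moved, of which 29 were counts at single genes. Genes of the set with a region fell from 9 to 5 with a window of 100 kb and to 3 when a region had to lie in the gene or nearest to it. The share over all protein-coding genes fell as well, from 78.0% to 38.1% and 15.6%. The 50 regions became 30 with peaks at or above the median score of their list, 16 with 100 kb, 79 with 1 Mb and 13 by the nearest gene. The median per gene of 4.5 became 1, 7.5 and 0 in those last 3 settings, and with 1 replicate left out it was 5.5 to 7. The higher value came from replicate 2 alone. Pathway genes with a region numbered 24 of 43 with 100 kb and 17 by the nearest gene, against 38. These counts are to be read against the same 38.1%, 15.6% and 78.0% of all genes. Most of these moves follow from the settings themselves, which admit fewer or more peaks. The 3 genes with a region inside remained 3 with reciprocal overlap or strong peaks and became 4 in either list alone, where Bmpr1b gained a peak. The share of overlapping peaks stayed between 69.8 and 80.6%. No paired analysis was possible because there were no peaks for the inputs whose numbers match those of the ChIP samples. The planned motif search in the regions was not run, as no genome sequence was used.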

Other observations

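Shared regions of the windows also met promoters of genes outside the Bmp pathway. Outside chromosome 18, which the promoter table did not cover, 6 of 38 regions (15.8%, Wilson 95% interval 7.44 to 30.4%) overlapped a promoter window. The share was 11.3% of all such regions, which were not limited to windows around genes. One of the 6 promoter overlaps was that of Smad6. The other 5 lay at Dvl3, Eif2b5, Arhgap11a and the divergent gene pairs Wdr12 with Carf and Aagab with Iqch. In the last 2 cases 1 region held the start sites of both genes of the pair.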
